A study of Mus musculus with 16 samples.

Results

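The response to interferon alpha was examined in stem-cell-enriched blood cells of mice carrying Jak2VF, an activating form of the Jak2 kinase, by comparing the 4 arrays labelled Jak2VF Interferon with the 4 labelled Jak2VF vehicle. These are 8 of the 16 Illumina bead arrays of the series, chosen by their labels alone. Both groups came from Jak2VF knock-in cells with the CD45.2 allele of the leukocyte protein CD45, from mice of the background the labels spell C57B16, isolated in vivo after 4 weeks of treatment. The interferon group had received 10000 units of interferon alpha per day and the vehicle group none. The other 8 arrays hold WT cells with the CD45.1 allele under the same treatments, and serve here for the spread and for the test of a difference between genotypes. The labels give no age and no sort gate. They also leave unsaid whether each array stands for a separate animal and whether the genotypes shared a host, so the p-values rest on a spread between samples that may be technical.

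Interferon alpha is a type I interferon, a cytokine that warns cells of viral infection. It binds a receptor made of Ifnar1 and Ifnar2, whose partner kinases Jak1 and Tyk2 phosphorylate STAT proteins. STAT proteins and Irf9 form the complex ISGF3, which binds a DNA element called ISRE and switches on antiviral genes, while STAT complexes without Irf9 bind the GAS element, the main route of interferon gamma. Jak2 is the kinase of the receptors for erythropoietin and other blood cell hormones, and its activating variant drives polycythemia vera, an overproduction of red cells that arises in a stem cell and that interferon alpha is used to treat.

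The deposited table gives an average intensity and a detection p-value for each probe. Mean intensity ran from 391 to 616 on the vehicle arrays and from 602 to 1130 on the interferon arrays, a log2 difference of 0.81 (exact two-sided permutation p = 0.0571, where 4 arrays against 4 allow no p under 0.0286). The difference was 0.33 within slide 1 and 1.30 within slide 2. Without interferon replicate 1 it was 0.99 (exact permutation p = 0.0286). Detected probes made up 45.3% to 48.8% of each Jak2VF array, and arrays of the same group correlated at 0.975 to 0.992. Each of the 2 slides held 2 arrays of each group, but the position on the slide went with the group, so position and treatment cannot be told apart. The part of brightness and position in the results was not tested beyond the settings named below. Levels are given as log2 intensity after background correction and quantile normalization, in the order of replicates 1 to 4, and set no gene against another.

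Of 9680 genes tested with limma, 630 (6.51%) were higher and 916 (9.46%) lower with interferon at a Benjamini-Hochberg adjusted p under 0.05. Together these are 1546 genes, and 2897 genes had a p under 0.05 before adjustment. The median change of all genes was near 0 (log2 −0.00042), and 5% to 95% of them lay between −0.94 and 0.73. Falls were deeper than rises, with a median of −0.87 among genes that fell and 0.69 among those that rose. A change of log2 1 or more was reached by 348 genes that fell and 135 that rose. The groups of 4 did not overlap for 1466 of the called genes, against 29.9% of all genes. For 473 called genes other probes of the same gene passed the detection filter, and 628 of these 695 probes changed in the same direction. In tissue made of several cell types, fewer cells of a type and less RNA per cell cannot be told apart, and this holds for every change below.

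The number of called genes moved with single arrays and with the scaling. It was 962 without vehicle replicate 1, 941 without vehicle replicate 3 and 712 without interferon replicate 4, and the rises alone numbered 402 without interferon replicate 3 and 964 without WT vehicle replicate 3. Within slide 1 alone 9 genes were called and within slide 2 alone 2, with 2 arrays a group, while all 128 called genes singled out for naming kept their direction on both slides. With brightness as a covariate 447 rose and 744 fell. Of the 128 named genes that were called, 31 lost the call with brightness as a covariate, 13 with the mean of all passing probes, 12 under median centring and 6 with the slide as a block. Centring each array on the median of the probes detected on all arrays moved the median gene by −0.19 and gave 626 rises and 1300 falls. Centring on all probes, detected or not, moved the median gene by 0.56 and gave 135 rises and 16 falls, and the cause was not tested. Relative to that median, the medians of the gene lists below kept their sign under each scaling tried, except for the receptor, feedback, sensor, G1/S, cytosolic ribosome, respiratory chain and glycolysis lists, which lay near 0 under at least 1 of them.

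**Figure D1:**
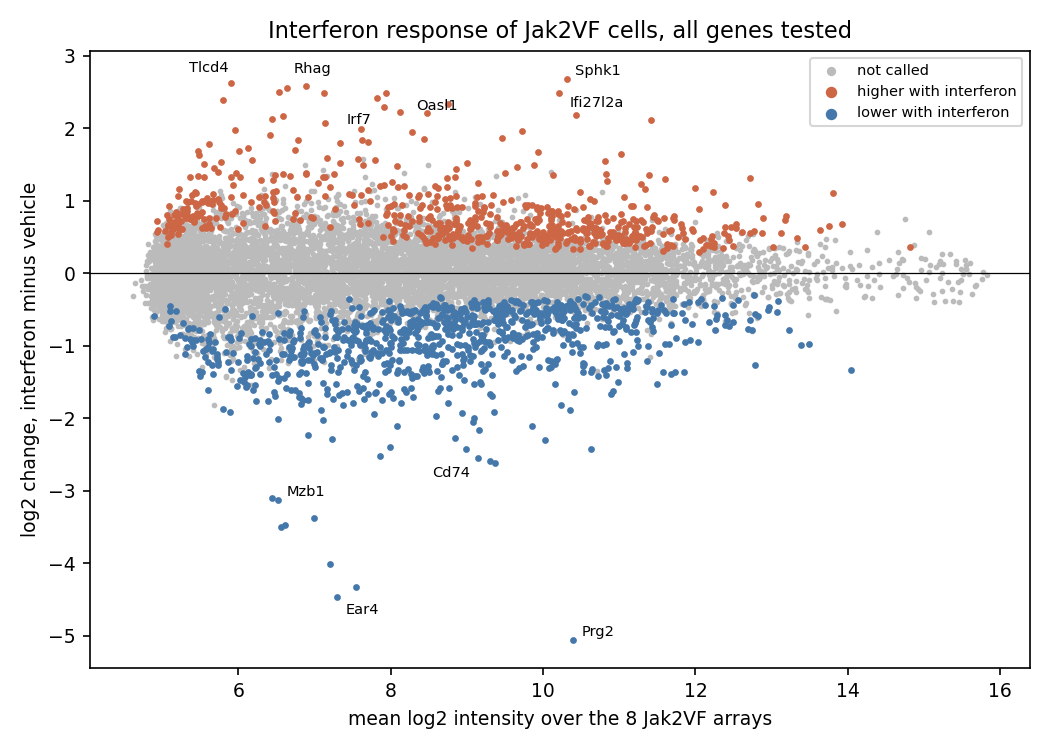
Change of each of 9680 genes with interferon in Jak2VF cells (vertical axis, log2) against its mean log2 intensity over the 8 Jak2VF arrays (horizontal axis). The deepest falls, among them Prg2 and Ear4, reach further from 0 than the largest rises, among them Sphk1 and Rhag.

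The machinery that carries the interferon signal showed no call. Of 6 tested members of the receptor and ISGF3 list 0 rose and 0 fell, with a median of 0.01, and 0 had an unadjusted p under 0.05 by limma, where 6.51% of all genes rose and 9.46% fell. With brightness as a covariate, or with array weights, 1 member fell. Ifnar2, Jak1, Tyk2, Stat2 and Irf9 gave adjusted p-values from 0.562 to 0.91, and Ifnar1 was below the detection filter. Jak2 stood at 8.35, 8.62, 8.02 and 8.71 on the vehicle arrays and 8.60, 8.66, 9.33 and 9.21 on the interferon arrays (log2 change 0.53, SE 0.22, adjusted p = 0.117), overlapping. Its probe reads no mutation and does not check the genotype label. Ptprc, the gene of CD45, changed by −0.44 (SE 0.17, adjusted p = 0.0887).

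Among the genes that restrain the pathway, 9 were tested, 1 rose and 1 fell, near the 6.51% and 9.46% of all genes. Usp18, which removes ISG15 from proteins and blocks signalling at Ifnar2, stood at 9.44, 9.58, 9.58 and 9.60 with vehicle and 10.10, 10.02, 9.94 and 9.77 with interferon (log2 change 0.40, SE 0.11, adjusted p = 0.0213). Every interferon array was above every vehicle array. Socs3, an inhibitor of Janus kinases that is itself a Stat3 target, stood at 7.89, 7.28, 6.81 and 7.09 and 5.22, 6.60, 6.15 and 5.11 (log2 change −1.49, SE 0.34, adjusted p = 0.0097), was detected on all 4 vehicle arrays and on 2 of the interferon arrays, and fell without overlap. Its call was lost with brightness as a covariate, and that of Usp18 was lost without vehicle replicate 1 or interferon replicate 1 or 2 (adjusted p 0.0523 to 0.0678). Socs1, Socs2 and Cish, further inhibitors of the same family, were not called.

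The interferon regulatory factors split. Irf7, the factor that amplifies type I interferon responses, rose from 6.43, 6.89, 6.96 and 6.78 on the vehicle arrays to 9.32, 9.04, 8.72 and 9.15 on the interferon arrays (log2 change 2.29, SE 0.35, adjusted p = 0.00088), with no overlap. Irf1, an interferon-induced factor with a GAS element in its promoter, fell from 11.89, 11.56, 11.04 and 11.65 to 10.01, 10.07, 10.55 and 9.88 (log2 change −1.41, SE 0.24, adjusted p = 0.0015), also with no overlap, and its other 4 passing probes fell too. Irf5 fell by 1.15 on the log2 scale (SE 0.23, adjusted p = 0.00435) and Irf2, which can act as a repressor, fell by 0.39 (SE 0.12, adjusted p = 0.0442). The Irf2 call was lost without vehicle replicate 1, 2, 3 or 4, interferon replicate 1, 2 or 4, WT vehicle replicate 2 or 4 or interferon-treated WT replicate 3 or 4 (adjusted p 0.0505 to 0.153). Of the 8 tested factors 1 rose and 3 fell, against 6.51% and 9.46% of all genes, with a median of −0.55.

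**Figure D2:**
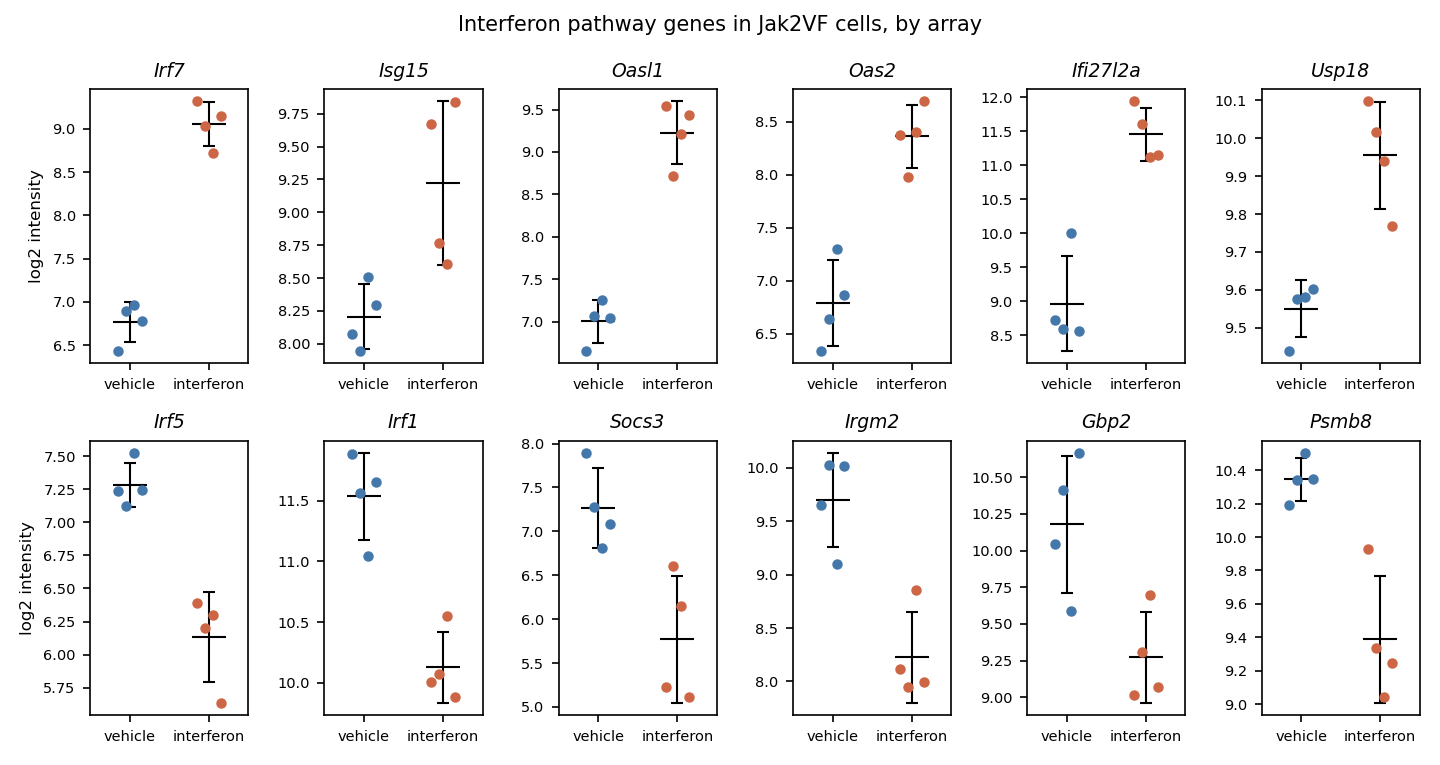
Log2 intensity of 12 interferon pathway genes on the 4 vehicle arrays (blue) and the 4 interferon arrays (orange) of Jak2VF cells, with the mean (long bar) and SD. The upper row holds genes that rose and the lower row genes that fell. Each panel has its own axis, which does not start at 0.

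The oligoadenylate synthetases, which sense viral double-stranded RNA and activate RNase L, rose in 5 of 8 cases against 6.51% of all genes, with a median of 0.73, or 0.37 with the genes that have only a bound placed at it. Of the 8 genes 1 passed the detection filter only through the group where it was high, so the filter itself favours a rise in it. Oasl1, a relative that in mice limits the making of Irf7 protein, stood at 6.66, 7.07, 7.26 and 7.05 with vehicle and 9.54, 8.71, 9.21 and 9.44 with interferon (log2 change 2.22, SE 0.26, adjusted p = 0.000249). Oas2 stood at 6.34, 6.64, 7.30 and 6.87 and 8.37, 7.98, 8.41 and 8.69 (log2 change 1.57, SE 0.25, adjusted p = 0.00098), and Oas1g at 9.89, 9.67, 9.74 and 9.84 and 10.62, 10.44, 10.46 and 10.90 (log2 change 0.82, SE 0.13, adjusted p = 0.001). In all 3 the interferon arrays lay above the vehicle arrays. Oas1a and Oas3 were detected on all 4 interferon arrays and on no vehicle array, which makes their rise at least 1.34-fold (adjusted p = 0.0226) and at least 1.19-fold (adjusted p = 0.0347). Their measured means went from 4.89 to 5.69 and from 4.86 to 5.52. Under median centring, which moved the median gene by −0.19, Oas3 changed by −0.08 and was not called (adjusted p = 0.905), and its call was also lost without vehicle replicate 1, 2, 3 or 4 or interferon replicate 1, 2, 3 or 4 (adjusted p 0.0584 to 0.103). The count of rises was 3 of 8 without vehicle replicate 1, or interferon replicate 1 or 4, and also without background correction, under median centring, on the authors' values and with brightness as a covariate. The Oas1 genes are close copies, and their probes were not checked for cross-hybridisation.

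ISG15 is a ubiquitin-like protein attached to other proteins in infected cells. Its gene Isg15 stood at 8.08, 7.95, 8.51 and 8.29 on the vehicle arrays and 9.67, 8.77, 8.61 and 9.84 on the interferon arrays (log2 change 1.02, SE 0.27, adjusted p = 0.0197). Interferon replicates 1 and 4 were high, while replicates 2 and 3 lay just above the highest vehicle array. Uba7, the enzyme that activates ISG15, fell from 12.16, 12.41, 11.79 and 12.40 to 11.49, 11.51, 11.79 and 11.36 (log2 change −0.65, SE 0.17, adjusted p = 0.0189), where vehicle replicate 3 and interferon replicate 3 nearly met. The Isg15 call was lost without vehicle replicate 1 or 2 or interferon replicate 1 or 4 (adjusted p 0.054 to 0.0783), and that of Uba7 without vehicle replicate 2 or 4 or interferon replicate 4 (adjusted p 0.0548 to 0.0699).

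Among 38 tested antiviral effectors 4 rose and 0 fell, with a median of 0.21, a share of rises not far from the 6.51% of all genes. Ifi27l2a, an interferon-inducible gene, stood at 8.72, 8.58, 10.01 and 8.56 with vehicle and 11.94, 11.61, 11.12 and 11.16 with interferon (log2 change 2.49, SE 0.46, adjusted p = 0.00247), and vehicle replicate 3 was higher than the other vehicle arrays. Cmpk2, a mitochondrial nucleotide kinase, stood at 8.26, 8.56, 8.89 and 8.71 and 9.81, 9.44, 9.66 and 9.71 (log2 change 1.06, SE 0.15, adjusted p = 0.000656). Phf11d rose by 1.08 (SE 0.16, adjusted p = 0.000807) and Ifi44 by 1.08 (SE 0.28, adjusted p = 0.0176), both without overlap. The Ifi44 call was lost without vehicle replicate 3 or interferon replicate 4 (adjusted p 0.0515 to 0.0568). Several classical interferon targets were detected on all 8 arrays but not called: Ifit3 (log2 change 0.31, adjusted p = 0.604), Ifit2 (−0.04, 0.927), Rsad2 (0.24, 0.576), Ifitm3 (0.02, 0.958) and Eif2ak2, the kinase that halts translation on viral RNA (0.13, 0.472). Mx1 and Ifit1 were below the detection filter. The rises numbered 7 without WT vehicle replicate 3, a dim array that enters through the shared spread, 9 without the 3 dimmest arrays or with array weights and 8 on the Jak2VF arrays alone, where 1 to 3 members fell.

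Of 10 nucleic acid sensors 0 rose and 1 fell, near the 9.46% of all genes that fell. Between 1 and 3 rose with brightness as a covariate, with array weights, on the Jak2VF arrays alone or without the 3 dimmest arrays, and 0 fell without background correction. The RNA sensor Ifih1 changed by 0.67 (SE 0.26, adjusted p = 0.0956), which missed the threshold although its groups did not overlap. Ikbke, a kinase downstream of the sensors, fell by 0.53 (SE 0.15, adjusted p = 0.031), a call that was lost without vehicle replicate 1, 2 or 3 or interferon replicate 3 or 4 (adjusted p 0.0507 to 0.115).

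The immunity GTPases, which attack vacuoles of intracellular microbes and are known mainly as interferon gamma targets, were lower where they were called. Of 10 tested 0 rose and 4 fell, against 9.46% of all genes that fell, with a median of −0.76. Irgm2 stood at 9.65, 10.03, 9.10 and 10.02 with vehicle and 8.11, 7.95, 8.86 and 7.99 with interferon (log2 change −1.47, SE 0.33, adjusted p = 0.00778). Vehicle replicate 3 was the lowest vehicle array and interferon replicate 3 the highest interferon array, and they did not meet. Gvin1 fell by 1.11 (SE 0.24, adjusted p = 0.00603). Gbp2 fell by 0.91 (SE 0.25, adjusted p = 0.0237) and Gbp6 fell by 0.79 (SE 0.23, adjusted p = 0.027). The Gbp2 groups overlapped at replicate 3. Its call was lost without vehicle replicate 2 or 4 or interferon replicate 1 or 4 (adjusted p 0.0584 to 0.0807), and that of Gbp6 without vehicle replicate 1, 2 or 4 or interferon replicate 2, 3 or 4 (adjusted p 0.0563 to 0.0955). Without vehicle replicate 2 or 4, or interferon replicate 4, 2 of the 10 were called, as with the mean of all probes, and 7 with array weights or without the 3 dimmest arrays.

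Promoters of interferon genes on both sides of the response are shown because the rises and falls both held members with the letters of the elements that ISGF3 and other STAT complexes bind. Each is the run of 250 bases before the gene's start in RefSeq (GRCm38.p6), read along the gene's strand. Capitals mark the ISRE core GAAANNGAAA, or its reverse complement TTTCNNTTTC, on either strand, with overlapping matches joined, and in Irf1 the GAS core TTCNNNGAA, which reads the same on both strands.
Isg15, higher, chr4:156200819-156201068, minus strand: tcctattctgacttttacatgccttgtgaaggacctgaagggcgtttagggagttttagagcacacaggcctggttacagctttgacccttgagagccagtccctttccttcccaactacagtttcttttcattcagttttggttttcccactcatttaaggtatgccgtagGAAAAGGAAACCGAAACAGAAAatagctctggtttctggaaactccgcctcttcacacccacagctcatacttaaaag
Oas1g, higher, chr5:120887614-120887863, minus strand: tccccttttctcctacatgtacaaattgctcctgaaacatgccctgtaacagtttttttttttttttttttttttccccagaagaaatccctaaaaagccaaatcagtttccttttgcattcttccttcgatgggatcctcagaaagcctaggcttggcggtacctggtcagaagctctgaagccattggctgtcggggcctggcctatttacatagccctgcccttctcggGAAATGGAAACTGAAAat
Irgm2, lower, chr11:58214727-58214976, plus strand: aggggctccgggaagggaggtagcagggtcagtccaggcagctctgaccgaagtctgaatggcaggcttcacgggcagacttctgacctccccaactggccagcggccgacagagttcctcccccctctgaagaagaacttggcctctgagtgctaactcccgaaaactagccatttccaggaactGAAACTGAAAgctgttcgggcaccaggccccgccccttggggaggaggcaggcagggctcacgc
Gbp2, lower, chr3:142620413-142620662, plus strand: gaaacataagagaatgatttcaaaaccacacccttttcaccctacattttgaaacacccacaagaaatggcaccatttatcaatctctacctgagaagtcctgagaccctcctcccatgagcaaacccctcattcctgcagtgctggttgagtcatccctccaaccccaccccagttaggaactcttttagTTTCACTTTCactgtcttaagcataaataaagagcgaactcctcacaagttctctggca
Irf1, lower, chr11:53769764-53770013, plus strand: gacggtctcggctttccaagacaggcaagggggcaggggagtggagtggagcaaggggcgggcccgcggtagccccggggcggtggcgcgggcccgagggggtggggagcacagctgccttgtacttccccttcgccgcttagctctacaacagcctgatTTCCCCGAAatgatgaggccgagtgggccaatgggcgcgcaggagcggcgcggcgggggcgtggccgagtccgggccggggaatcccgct

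The Isg15 window holds 3 overlapping matches that begin 78 bases before the start, and the Oas1g window 2 that begin 18 bases before it. Irgm2 and Gbp2 hold 1 ISRE match each, and Irgm2 also holds 1 GAS match, at −75 from its start and left in lower case. Irf1 holds 1 GAS match 90 bases before its start in the promoter shown, while its other promoter in RefSeq held none. The windows shown were chosen because they hold a match, while Irf7, Oasl1, Cmpk2, Phf11d and Ifi44 rose with no ISRE match. The ISRE core was found in 2.98% of 32851 promoters of this length. Counted by gene, with a match in any of its promoters, it was found in 3.46% of all 27025 genes with a promoter there and in 3.34% of the tested genes. Of all called genes with a promoter there, it was found in 13 of 502 that were higher (2.59%) and 27 of 720 that were lower (3.75%). Among the genes of the interferon lists above, from the receptor to the GTPases, and counting those with a promoter in the table, it was found in 4 of 9 that were higher, 3 of 8 that were lower and 16 of 58 that were not called. The GAS core was found in 7.02% of all promoters. Counted by gene, it was found in 8.13% of all genes, in 7.2% of the tested genes, and in 1 of 9, 4 of 8 and 13 of 58 of the same sets. These are counts of letters in a window, not of bound sites.

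Genes of MHC class I presentation, which shows peptides of the cell's own proteins, were lower where they were called. Of 15 tested 0 rose and 5 fell, against 9.46% of all genes that fell, with a median of −0.33. The immunoproteasome subunit Psmb10 stood at 12.42, 12.52, 12.54 and 12.59 with vehicle and 12.19, 11.91, 11.54 and 11.73 with interferon (log2 change −0.67, SE 0.17, adjusted p = 0.0177), and the non-classical molecule H2-M3 at 9.42, 9.50, 9.28 and 9.54 and 8.62, 8.85, 8.84 and 8.60 (log2 change −0.71, SE 0.13, adjusted p = 0.00286). Every interferon array was below every vehicle array for both. Psmb8, Psmb9 and the peptide transporter subunit Tap2 fell, with log2 changes of −0.96, −0.44 and −0.37 (adjusted p = 0.0413, 0.028 and 0.0476), and with the slide as a block the calls of Psmb8 and Tap2 were lost and 3 of the 15 were called. B2m, the light chain of class I molecules, changed by 0.26 (adjusted p = 0.193) and H2-K1 by −0.05 (adjusted p = 0.946), and neither was called. The list held few firm calls, with 1 of 15 left without interferon replicate 3 or 4, 2 without vehicle replicate 3 or 4, and 3 without vehicle replicate 1 or 2, interferon replicate 2, or, among WT arrays, vehicle replicate 2 or interferon replicate 3 or 4.

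MHC class II, which presents engulfed proteins, fell almost throughout, with 8 of 9 genes lower against 9.46% of all genes, 0 higher and a median of −1.63. Cd74, the invariant chain, stood at 10.43, 10.43, 10.53 and 10.28 on the vehicle arrays and 8.63, 7.74, 8.47 and 6.63 on the interferon arrays (log2 change −2.55, SE 0.37, adjusted p = 0.000656). H2-Aa, a chain of the classical class II molecule, stood at 10.84, 11.70, 10.91 and 11.27 and 9.45, 8.88, 9.30 and 7.87 (log2 change −2.30, SE 0.30, adjusted p = 0.000405), and H2-DMb1, which helps load the peptide, at 10.12, 10.32, 10.15 and 10.13 and 8.72, 8.67, 8.47 and 8.10 (log2 change −1.69, SE 0.18, adjusted p = 0.000158). The interferon arrays all lay below the vehicle arrays, and interferon replicate 4 was the lowest in each. H2-Eb1 fell by 2.62 (SE 0.45) and H2-Ab1 fell by 1.63 (SE 0.23). Ciita, the master regulator of class II genes, was detected on 3 vehicle arrays and on no interferon array, and was at least 2.3-fold lower (adjusted p = 0.0344), from a measured mean of 6.40 to 4.79. The mean level of the list ran from 9.54 to 10.13 on the vehicle arrays and from 7.54 to 8.50 on the interferon arrays. Leaving out 1 array left 7 or 8 of the calls, and that of Ciita was lost without vehicle replicate 1, 2 or 4 or interferon replicate 1, 2, 3 or 4 (adjusted p 0.0598 to 0.102). Markers of B cells, monocytes and other cells that carry class II are given further on, and their part in this fall was not tested.

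Of 12 transcription factors of the red cell line 3 rose, against 6.51% of all genes, and 0 fell. Klf1, which drives the late red cell programme, stood at 10.58, 10.92, 10.35 and 11.03 with vehicle and 12.15, 12.02, 11.84 and 12.26 with interferon (log2 change 1.35, SE 0.19, adjusted p = 0.000542), and Klf3, itself a Klf1 target, at 8.08, 8.27, 7.95 and 8.29 and 9.21, 9.16, 9.41 and 9.55 (log2 change 1.18, SE 0.15, adjusted p = 0.000405). Both groups of 4 were separate by wide gaps. Bcl11a, which silences embryonic globins, rose by 0.46 (SE 0.14, adjusted p = 0.0394), a call that was lost without vehicle replicate 2 or 3, interferon replicate 2, 3 or 4 or WT interferon replicate 4 (adjusted p 0.0522 to 0.129). Gata1, the central red cell and platelet factor, changed by 0.84 with a wide SE of 0.52 and was not called (adjusted p = 0.31), nor were Tal1 and Gfi1b. With array weights or without the 3 dimmest arrays 5 of the 12 rose and 1 to 3 fell, and 2 fell under median centring or with brightness as a covariate.

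Of 21 tested genes of the red cell membrane and its skeleton 12 rose, against 6.51% of all genes, and 0 fell. Their median was 1.17, or 0.78 with genes that have only a bound placed at it. Rhag, the Rh-associated glycoprotein, stood at 6.28, 5.75, 4.76 and 5.62 on the vehicle arrays, 3 of them detected, and 7.38, 8.16, 8.17 and 9.03 on the interferon arrays (log2 change 2.58, SE 0.38, adjusted p = 0.000681). Ermap, a blood group protein of the red cell surface, stood at 7.36, 7.999, 6.93 and 8.05 and 9.73, 9.87, 9.76 and 10.28 (log2 change 2.33, SE 0.42, adjusted p = 0.00225). Ank1, the ankyrin that ties the skeleton to the membrane, stood at 6.68, 6.81, 5.79 and 7.16 and 8.87, 8.65, 8.98 and 9.59 (log2 change 2.41, SE 0.42, adjusted p = 0.00178). In each the interferon arrays stood clear of the vehicle arrays, of which replicate 3 was the lowest. Rhd was detected on no vehicle array and on all 4 interferon arrays and was at least 2.34-fold higher (adjusted p = 0.000212, measured means 4.72 and 6.50), and Add2, an adducin, at least 1.45-fold (adjusted p = 0.000416, means 4.64 and 5.80). Kel and Cldn13 rose by 1.94 and 1.97 (adjusted p = 0.0012 and 0.000434). Epor, the erythropoietin receptor that signals through Jak2, rose from 7.99, 8.34, 7.27 and 8.35 to 9.27, 9.07, 9.03 and 9.36 (log2 change 1.20, SE 0.23, adjusted p = 0.00278). Among genes of late red cell maturation that were not called were Slc4a1, the band 3 anion exchanger (−0.18, adjusted p = 0.799), detected on 2 vehicle and 1 interferon arrays, and Sptb, a spectrin (−0.28, adjusted p = 0.569). Of the 21 genes 3 passed the detection filter only through the group where they were high. The mean level of the list ran from 6.75 to 7.37 with vehicle and from 8.05 to 8.37 with interferon.

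**Figure D3:**
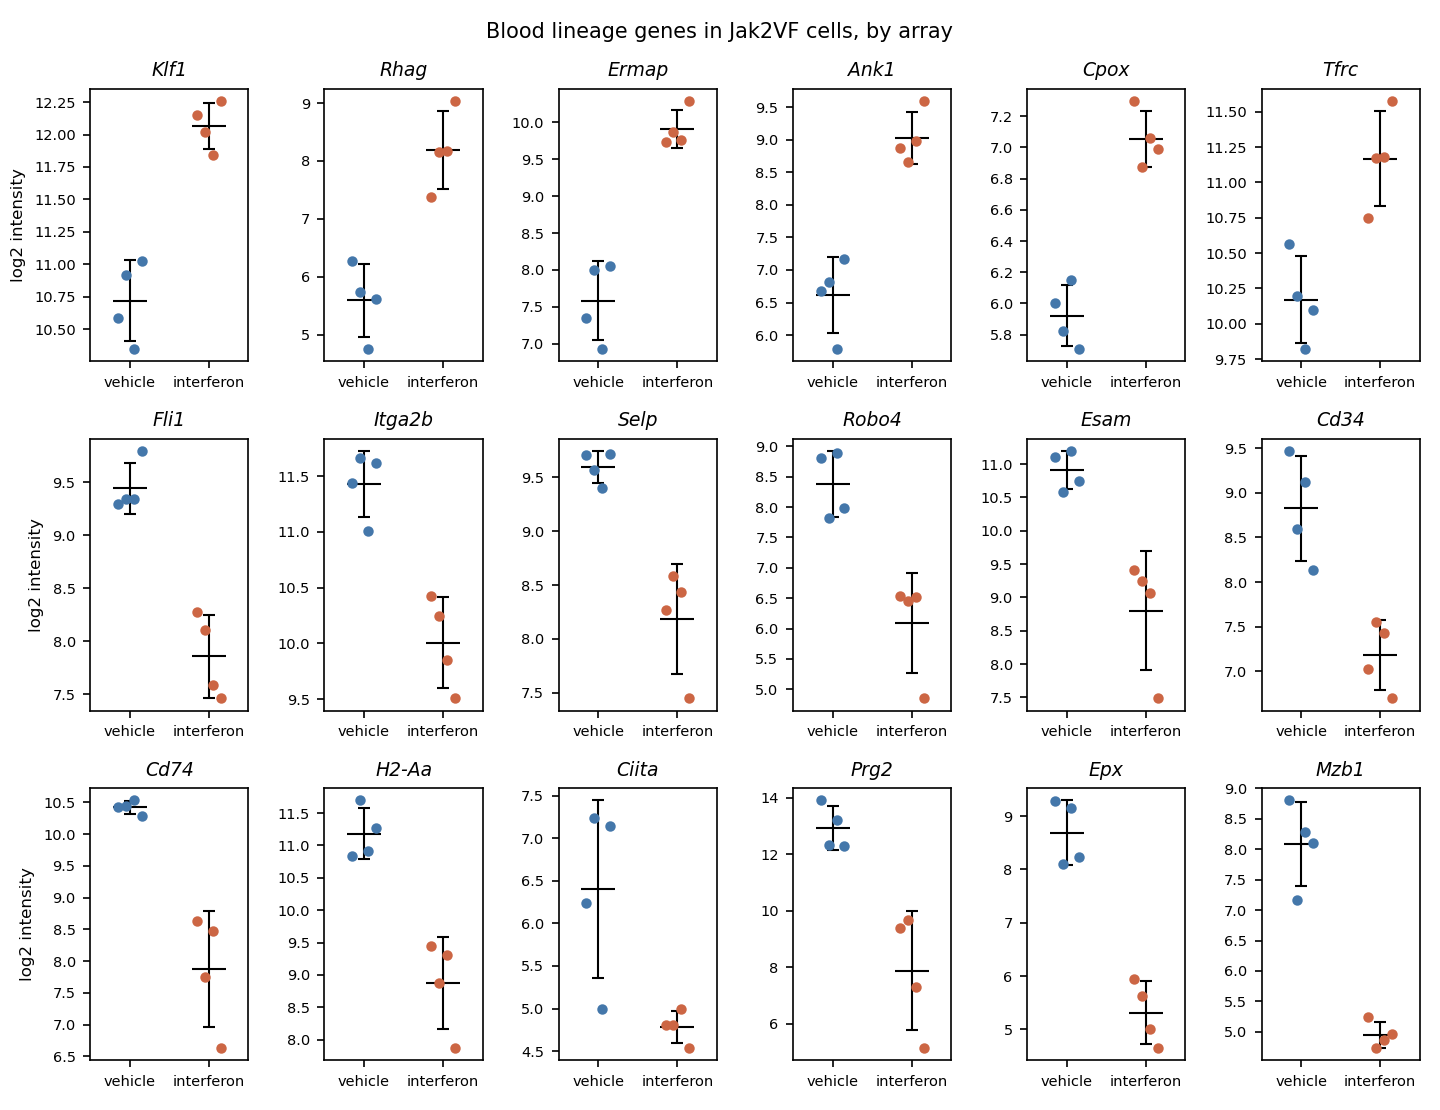
Log2 intensity of 18 blood lineage genes on the 4 vehicle arrays (blue) and 4 interferon arrays (orange) of Jak2VF cells, with the mean (long bar) and SD. The top row holds red cell genes, which rose, the middle row platelet and stem cell genes and the bottom row MHC class II, eosinophil and plasma cell genes, which fell. Each panel has its own axis, which does not start at 0.

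Some genes of heme and iron supply rose. Of 10 heme synthesis genes 3 rose and 0 fell, and of 12 iron genes 3 rose and 0 fell, with medians of 0.42 and 0.40. Of all genes 6.51% rose. Without the 3 dimmest arrays or with array weights 6 rose on each list. Slc40a1, the iron exporter ferroportin, stood at 8.55, 8.14, 8.89 and 8.53 with vehicle and 10.29, 10.30, 10.39 and 10.57 with interferon (log2 change 1.86, SE 0.32, adjusted p = 0.00187). Tfrc, the transferrin receptor that brings iron in, stood at 10.56, 10.20, 9.82 and 10.10 and 10.75, 11.18, 11.18 and 11.57 (log2 change 0.999, SE 0.22, adjusted p = 0.00745), where interferon replicate 1 lay little above the highest vehicle array. Cpox, a late enzyme of heme synthesis, stood at 6.005, 5.82, 6.15 and 5.71 and 7.29, 6.87, 7.06 and 6.99 (log2 change 1.13, SE 0.26, adjusted p = 0.0103), with no overlap. Slc25a38, the mitochondrial glycine carrier, rose by 0.71 (SE 0.14, adjusted p = 0.00435) and Alad by 0.38 (SE 0.10, adjusted p = 0.021). Fth1, the ferritin heavy chain, rose by 0.36 (SE 0.11, adjusted p = 0.0295), and under median centring it changed by −0.15, above the median gene, and was not called (adjusted p = 0.645). The Alad call was lost without vehicle replicate 1 or 4 or interferon replicate 2 or 4 (adjusted p 0.0504 to 0.0572) and that of Fth1 without vehicle replicate 1, 2, 3 or 4 or interferon replicate 2 or 4 (adjusted p 0.0515 to 0.109). The globin genes Hba-a1 (−0.57, adjusted p = 0.54) and Hbb-b1 (−0.28, adjusted p = 0.646) were not called, and the erythroid enzyme gene Alas2 was below the detection filter.

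The metallothioneins Mt1 and Mt2, small proteins that bind zinc and copper, rose. Mt2 stood at 5.86, 6.001, 5.22 and 6.41 on the vehicle arrays, 3 of them detected, and 8.86, 8.34, 7.53 and 8.73 on the interferon arrays (log2 change 2.49, SE 0.37, adjusted p = 0.000801). Mt1 stood at 13.11, 13.41, 13.05 and 13.44 and 14.31, 14.35, 14.28 and 14.48 (log2 change 1.10, SE 0.16, adjusted p = 0.000658). Neither overlapped. Mtf1, the metal-sensing factor that induces them, changed by 0.52 and was not called (adjusted p = 0.0686), with detection on 0 vehicle and 2 interferon arrays.

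Of 22 tested genes of megakaryocytes, the platelet-forming cells, and of platelets 11 fell, against 9.46% of all genes, and 0 rose. Their median was −0.66. Selp, the platelet P-selectin, stood at 9.71, 9.57, 9.40 and 9.71 with vehicle and 8.27, 8.59, 8.44 and 7.45 with interferon (log2 change −1.41, SE 0.21, adjusted p = 0.000801), and Itga2b, the integrin chain CD41, at 11.44, 11.66, 11.01 and 11.61 and 10.43, 10.25, 9.85 and 9.51 (log2 change −1.42, SE 0.22, adjusted p = 0.000947). In both the groups were separate and interferon replicate 4 was the lowest array. Fli1, a factor of platelet and blood vessel genes, fell by 1.58 (SE 0.30, adjusted p = 0.00273) and Gp9, part of the von Willebrand factor receptor, fell by 1.28 (SE 0.23, adjusted p = 0.00202). Vwf itself stood at 10.56, 10.47, 9.90 and 10.64 and 9.71, 9.57, 9.26 and 8.82 (log2 change −1.05, SE 0.27, adjusted p = 0.0177), a call that was lost without vehicle replicate 1 or interferon replicate 4 (adjusted p 0.0528 to 0.0731). Gp1ba, Gp5 and Itgb3 were not called (adjusted p = 0.821, 0.236 and 0.339). Of the 22 genes 2 had a positive change, the larger of them 1.43, and neither was called. Within slide 1 alone, with array weights or without interferon replicate 3, 1 member was called higher. Without interferon replicate 4, 6 of the 22 were called.

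The label of stem-cell-enriched cells could be checked against surface markers. Ly6a, known as Sca-1 and used to sort mouse stem cells, was detected on all 8 arrays at 11.04, 11.13, 11.34 and 11.26 with vehicle and 10.52, 10.58, 10.72 and 9.95 with interferon (log2 change −0.75, SE 0.20, adjusted p = 0.0224), and its fall was not called without vehicle replicate 3 or 4 or interferon replicate 4 (adjusted p 0.0516 to 0.0857). Kit had no probe used here. Of 15 tested surface markers 9 fell, against 9.46% of all genes, and 0 rose, with a median of −0.79. Esam, an adhesion molecule of stem cells and vessels, stood at 11.11, 10.59, 11.20 and 10.75 and 9.41, 9.25, 9.06 and 7.49 (log2 change −2.11, SE 0.34, adjusted p = 0.00114). Robo4, which helps to hold stem cells in the marrow, stood at 8.81, 7.82, 8.88 and 7.99 and 6.54, 6.45, 6.53 and 4.85 (log2 change −2.29, SE 0.36, adjusted p = 0.00106), and interferon replicate 4 was far below the rest and not detected. Cd34 stood at 9.47, 8.59, 9.12 and 8.13 and 7.03, 7.56, 7.43 and 6.70 (log2 change −1.65, SE 0.24, adjusted p = 0.000712), and Cd27, a receptor of the tumour necrosis factor family, at 11.98, 11.54, 11.91 and 11.50 and 10.002, 10.80, 10.52 and 9.60 (log2 change −1.51, SE 0.22, adjusted p = 0.000643). No interferon array of these 4 genes reached the vehicle range. Alcam was detected on all 4 vehicle arrays and on no interferon array, and was at least 2.23-fold lower (adjusted p = 0.0176, means 6.36 and 4.97), a call that was lost without vehicle replicate 3 or interferon replicate 4 (adjusted p 0.0577 to 0.0604). Cd48, found on progenitors rather than on the most primitive stem cells, changed by 0.25 (adjusted p = 0.379), and Slamf1, or CD150, by −0.10 with an SE of 0.43 (adjusted p = 0.913). The mean level of the list ran from 8.71 to 9.12 with vehicle and from 7.48 to 8.19 with interferon. Without interferon replicate 4, 5 of the 15 were called.

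Among 18 stem cell transcription factors 6 fell, against 9.46% of all genes, and 0 rose, with a median of −0.42. Of the 18 genes 2 passed the detection filter only through the group where they were high. Meis1, a homeobox factor that keeps stem cells quiet, stood at 12.20, 12.15, 12.05 and 11.96 with vehicle and 11.06, 11.41, 11.46 and 10.54 with interferon (log2 change −0.97, SE 0.18, adjusted p = 0.0025). Nkx2-3 stood at 10.23, 9.77, 10.85 and 9.55 and 8.16, 8.88, 8.30 and 6.85 (log2 change −2.05, SE 0.40, adjusted p = 0.00356), and Hoxa7 at 9.63, 9.42, 10.06 and 9.32 and 8.52, 8.94, 8.39 and 8.05 (log2 change −1.13, SE 0.22, adjusted p = 0.00342). All 3 were separate, with interferon replicate 4 the lowest. Hoxa5, Zfp521 and the imprinted gene Ndn fell, with log2 changes of −0.94, −0.92 and −1.55 (adjusted p = 0.00495, 0.00679 and 0.0223), the last with a call that was lost without vehicle replicate 3 or interferon replicate 4 (adjusted p 0.065 to 0.0766). Mecom, Gata2, Runx1 and Bmi1 were not called (adjusted p = 0.771, 0.184, 0.146 and 0.328). Cdkn1c, the inhibitor p57 that holds stem cells out of the cell cycle, stood at 8.13, 7.58, 9.08 and 7.72 and 6.94, 6.13, 6.25 and 5.05 (log2 change −2.03, SE 0.50, adjusted p = 0.0136), and its fall without overlap was no longer called without interferon replicate 4 (adjusted p = 0.0574) or with brightness as a covariate.

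The counts of called cell cycle genes lay near the shares of all genes, of which 6.51% rose and 9.46% fell. Of 29 DNA replication and G1/S genes 3 rose and 1 fell (median 0.04), and of 26 G2/M genes 2 rose and 1 fell (median 0.25). Of the 26 G2/M genes 1 passed the detection filter only through the group where it was high. Ccne1, the cyclin that starts S phase, stood at 6.26, 6.46, 6.17 and 6.58 with vehicle and 8.05, 7.85, 7.55 and 8.39 with interferon (log2 change 1.59, SE 0.40, adjusted p = 0.016), clearly apart. Its call was lost without interferon replicate 4 (adjusted p = 0.0619) and with brightness as a covariate. Cdc6, which loads the replicative helicase, rose by 0.71 (SE 0.20, adjusted p = 0.0253) and Rfc2, part of the clamp loader, fell by 0.57 (SE 0.12, adjusted p = 0.00408). The Cdc6 call was lost without vehicle replicate 1, 3 or 4 or interferon replicate 3 or 4 (adjusted p 0.0524 to 0.0875). Pttg1, the securin, was detected on 0 vehicle and 4 interferon arrays and was at least 1.36-fold higher (adjusted p = 0.0213, means 4.84 and 5.72), a call that was lost without vehicle replicate 1 or 4 or interferon replicate 1 or 4 (adjusted p 0.0556 to 0.0613). Ccnd1, a cyclin D and Stat target, fell from 9.61, 9.81, 10.09 and 9.73 to 8.86, 8.40, 8.75 and 8.22 (log2 change −1.25, SE 0.21, adjusted p = 0.00129). The G1/S rises numbered 0 with brightness as a covariate or without interferon replicate 4, 1 without vehicle replicate 1, 3 or 4 or interferon replicate 3, and 6 without WT interferon replicate 2. The G2/M rises numbered 0 under median centring, with brightness as a covariate or without vehicle replicate 1 or interferon replicate 4 and 1 without vehicle replicate 3 or 4 or interferon replicate 1, 2 or 3.

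Of 26 tested ribosome biogenesis genes and Myc targets 12 rose, against 6.51% of all genes, and 0 fell. All 26 had a positive change, with a median of 0.48 and a highest change of 1.05. Odc1, the first enzyme of polyamine synthesis and a Myc target, stood at 12.20, 12.32, 12.13 and 12.26 with vehicle and 12.89, 12.87, 12.79 and 12.84 with interferon (log2 change 0.62, SE 0.11, adjusted p = 0.00226), and Rrp12, a ribosome assembly factor, at 10.33, 10.27, 10.30 and 10.42 and 10.97, 10.81, 11.21 and 11.20 (log2 change 0.72, SE 0.15, adjusted p = 0.00461). Hspd1, a mitochondrial chaperone on the same list, rose by 0.79 (SE 0.16, adjusted p = 0.00445) and Polr1a, the largest subunit of RNA polymerase I, by 0.53 (SE 0.11, adjusted p = 0.00575). None of these 4 overlapped. Myc itself changed by 0.73 with an SE of 0.57 and was not called (adjusted p = 0.437). Of 60 genes of the proteins of the cytosolic ribosome 0 were called by limma and 13 had an unadjusted p under 0.05, with a median of −0.10 and a smallest adjusted p of 0.0536. In other fits up to 7 were called lower, with array weights, 6 without the 3 dimmest arrays and 5 without background correction, and up to 2 higher, with brightness as a covariate. Without interferon replicate 4, 7 of the 26 biogenesis genes were called, and with array weights 19.

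In energy metabolism the calls fell on single enzymes, where 6.51% of all genes rose and 9.46% fell. Pklr, the pyruvate kinase of red cells and liver, was detected on no vehicle array and all 4 interferon arrays and was at least 2.07-fold higher (adjusted p = 0.000404, means 4.62 and 6.32), a call that was lost under median centring (adjusted p = 0.181) and with no detection filter (adjusted p = 0.951). Pkm, the pyruvate kinase of most other cells, went the other way, from 11.90, 11.68, 11.66 and 11.64 to 10.53, 10.86, 10.97 and 10.17 (log2 change −1.09, SE 0.17, adjusted p = 0.00088). Slc2a1, a glucose transporter, fell from 9.21, 8.88, 9.11 and 8.83 to 8.05, 8.10, 8.13 and 7.46 (log2 change −1.07, SE 0.15, adjusted p = 0.000475), and Pfkm, a phosphofructokinase, rose from 10.40, 10.25, 10.41 and 10.42 to 10.71, 10.88, 11.22 and 11.09 (log2 change 0.61, SE 0.14, adjusted p = 0.00864). None of these overlapped. Of 17 glucose uptake and glycolysis genes 2 rose and 2 fell, and 1 of the 17 passed the detection filter only through the group where it was high. Of 73 genes of the respiratory chain 2 rose and 0 fell (median −0.10), both parts of complex III: Uqcrc2, lost without vehicle replicate 1, 2, 3 or 4, interferon replicate 2, 3 or 4 or WT interferon replicate 3 (adjusted p 0.0504 to 0.126), and Cyc1, lost without vehicle replicate 1, 2, 3 or 4, interferon replicate 2, 3 or 4 or WT interferon replicate 1, 3 or 4 (adjusted p 0.0522 to 0.147).

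Transcripts of mature white cells were found on the vehicle arrays, and those called were lower with interferon. All 8 tested eosinophil genes fell, against 9.46% of all genes, with a median of −3.75. Siglecf had no probe used here, and Il5ra, Ccr3 and Alox15 were below the detection filter. Prg2, the major basic protein of eosinophil granules, stood at 13.90, 12.34, 13.19 and 12.28 with vehicle and 9.38, 9.66, 7.29 and 5.15 with interferon (log2 change −5.06, SE 1.06, adjusted p = 0.00546). Epx, the eosinophil peroxidase, stood at 9.28, 8.10, 9.14 and 8.23 and 5.95, 5.63, 5.005 and 4.65 (log2 change −3.37, SE 0.48, adjusted p = 0.000594), with 2 interferon arrays detected, and the eosinophil ribonuclease Ear4 at 10.50, 8.85, 9.03 and 9.75 and 4.80, 6.04, 4.76 and 4.65 (log2 change −4.47, SE 0.56, adjusted p = 0.000404), with 1 detected. Every vehicle array was high and every interferon array low, and vehicle replicate 1 was the highest. Ear2, Ear6, Ear12 and Prg3 fell, with log2 changes of −4.33, −4.01, −3.50 and −3.47, each detected on 1 or 2 interferon arrays, and Ear10 on none, which makes it at least 6.91-fold lower (means 7.99 and 4.89). The Ear genes are near-identical copies whose probes may share targets. The mean level of the 8 genes ran from 8.46 to 10.31 with vehicle and from 4.82 to 6.15 with interferon, and 8 genes fell in each fit that left out 1 array.

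Of 20 neutrophil and monocyte genes 4 fell, against 9.46% of all genes, and 0 rose. Their median was −1.17, with a negative change in each. S100a8, a subunit of calprotectin, stood at 13.52, 10.55, 11.82 and 11.45 and 9.31, 9.53, 9.28 and 9.53 (log2 change −2.43, SE 0.66, adjusted p = 0.0224), and its partner S100a9 at 12.33, 9.26, 10.39 and 10.45 and 7.99, 7.94, 8.10 and 7.995 (log2 change −2.60, SE 0.71, adjusted p = 0.0226). Vehicle replicate 1 was far above the others and the interferon arrays were close together. Their calls were lost without vehicle replicate 1 or 3 or interferon replicate 3 or 4 (adjusted p 0.0534 to 0.0723) and without vehicle replicate 1 or interferon replicate 4 (adjusted p 0.0633 to 0.0739). Lyz2, a lysozyme, fell from 11.38, 11.10, 11.66 and 11.10 to 10.09, 10.54, 9.89 and 9.42 (log2 change −1.32, SE 0.21, adjusted p = 0.00104), and Prtn3, a protease of promyelocytes, fell by 1.54 (adjusted p = 0.0152), a call that was lost without interferon replicate 4 (adjusted p = 0.0599). Mpo, Ngp and Ltf were not called (adjusted p = 0.229, 0.891 and 0.899), and Itgam was below the detection filter. The mean level of the list ran from 8.004 to 9.78 with vehicle and from 7.53 to 7.75 with interferon. The 4 falls became 1 without interferon replicate 4, 2 without vehicle replicate 1 and 7 without WT vehicle replicate 1. With brightness as a covariate 2 fell and S100a8, S100a9 and Prtn3 were not called, under median centring 8 fell, and on the Jak2VF arrays alone, with array weights or without the 3 dimmest arrays 9 to 11 fell.

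Markers of other cells were sparse, and their falls stand beside the 9.46% of all genes that fell. Of 18 listed B and plasma cell genes 6 could be tested and 3 fell, while Cd79a and Pax5 were below the detection filter. Mzb1, a chaperone of antibody-making cells, stood at 8.80, 7.16, 8.28 and 8.10 with vehicle and was detected on no interferon array, so that it was at least 7.37-fold lower (adjusted p = 0.000313, means 8.08 and 4.95). Cd79b fell from 9.47, 9.12, 9.54 and 8.97 to 8.02, 8.47, 7.90 and 7.33 (log2 change −1.35, SE 0.24, adjusted p = 0.00206). Of 15 T and NK cell genes 4 could be tested and 1 fell, Nkg7 (log2 change −0.94, adjusted p = 0.00199), with Cd3e, Cd3d and Cd4 below the filter. Of 7 mast cell and basophil genes 2 fell, Fcer1a, a chain of the IgE receptor (log2 change −1.32, adjusted p = 0.0125), and the protease Cpa3 (log2 change −0.74, adjusted p = 0.0401). Of 7 endothelial and stromal genes 2 fell, Pecam1 (log2 change −0.93, adjusted p = 0.0126) and Emcn (log2 change −2.01, adjusted p = 0.0197), both also carried by stem cells. Of the 4 tested T and NK cell genes 1, and of the 7 endothelial and stromal genes 1, passed the detection filter only through the group where they were high. The calls were lost for Fcer1a without interferon replicate 4 (adjusted p = 0.0535), for Cpa3 without vehicle replicate 1, 2 or 3, interferon replicate 1 or 4 or WT interferon replicate 4 (adjusted p 0.0534 to 0.141), for Pecam1 without interferon replicate 4 (adjusted p = 0.0527) and for Emcn without vehicle replicate 1 or 3 or interferon replicate 4 (adjusted p 0.0592 to 0.0783). The part of mature cells in the changes of the stem cell, MHC and interferon genes was not tested.

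Immediate early genes, which respond within minutes to growth factors and to handling of cells, fell in 10 of 17 cases, against 9.46% of all genes. Their median was −0.85, and 1 of the 17 passed the detection filter only through the group where it was high. Dusp2, a phosphatase of the MAP kinase pathway, stood at 10.84, 10.49, 10.58 and 10.43 with vehicle and 9.34, 9.97, 9.12 and 8.76 with interferon (log2 change −1.29, SE 0.24, adjusted p = 0.00275), and Klf2 at 8.66, 7.92, 7.45 and 8.12 and 5.54, 6.64, 6.02 and 4.997 (log2 change −2.24, SE 0.47, adjusted p = 0.00563). Neither overlapped. Fos, a subunit of the AP-1 factor, stood at 12.87, 12.42, 11.56 and 12.64 and 10.56, 11.76, 11.36 and 10.26 (log2 change −1.39, SE 0.36, adjusted p = 0.0183), where interferon replicate 2 was above vehicle replicate 3. The Fos call was lost without vehicle replicate 1 or interferon replicate 4 (adjusted p 0.0612 to 0.075). Egr1 and Junb were not called (adjusted p = 0.243 and 0.212). Without vehicle replicate 1 or interferon replicate 4, 2 of the 17 were called, without vehicle replicate 2 or interferon replicate 3, 5, and without vehicle replicate 4, 6. With brightness as a covariate, which differed between the groups, 5 were called, and with no detection filter 6. The part of cell handling in this fall was not tested.

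Among other STAT genes and STAT targets 4 of 15 fell, against 9.46% of all genes, and 0 rose. With the mean of all passing probes 2 fell, and 7 fell under median centring, with array weights, on the Jak2VF arrays alone or without the 3 dimmest arrays. Stat3, which serves interleukin-6 and related cytokines, stood at 11.09, 10.93, 11.05 and 11.07 on the vehicle arrays and 10.23, 9.97, 10.13 and 9.72 on the interferon arrays (log2 change −1.02, SE 0.14, adjusted p = 0.000488). The vehicle arrays lay close together and the interferon arrays well below them. Stat4 fell by 0.89 (SE 0.16, adjusted p = 0.00227) and the survival kinase Pim1 fell by 0.99 (SE 0.26, adjusted p = 0.0191), the latter lost without vehicle replicate 1, 2 or 4 or interferon replicate 3 (adjusted p 0.051 to 0.0618). The calls of Stat4 and Pim1 were both lost with the mean of all passing probes. Stat5a, the main partner of Jak2 in red cell growth, changed by 0.04 (interval −0.30 to 0.39), and its targets Cish, Socs2 and Osm were not called. Of 23 p53 and DNA damage genes 1 rose and 2 fell, and of 12 BCL2 family genes 1 rose and 1 fell. These counts lay near the 6.51% of all genes that rose and the 9.46% that fell. Of the 23 genes 1, and of the 12 genes 2, passed the detection filter only through the group where they were high. The cell death gene Bid rose from 8.28, 8.34, 8.49 and 8.51 to 9.07, 9.01, 9.14 and 9.20 (log2 change 0.70, SE 0.17, adjusted p = 0.0119) without overlap, and its call was lost with brightness as a covariate. Bok fell by 1.65 (adjusted p = 0.0193), a call lost without vehicle replicate 3 or interferon replicate 4 (adjusted p 0.0534 to 0.078). The calls of the p53 targets depended on single arrays: Ccng1 (0.50) was lost without vehicle replicate 1, 2 or 3, interferon replicate 3 or 4, WT vehicle replicate 2 or interferon-treated WT replicate 3 or 4 (adjusted p 0.0536 to 0.136), Gadd45b (−1.29) was lost without vehicle replicate 1, 2, 3 or 4, interferon replicate 1, 2, 3 or 4 or WT interferon replicate 1, 3 or 4 (adjusted p 0.0514 to 0.141) and Sesn1 (−0.42) was lost without vehicle replicate 1, 2 or 3 or interferon replicate 1 or 4 (adjusted p 0.051 to 0.109).

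**Figure D4:**
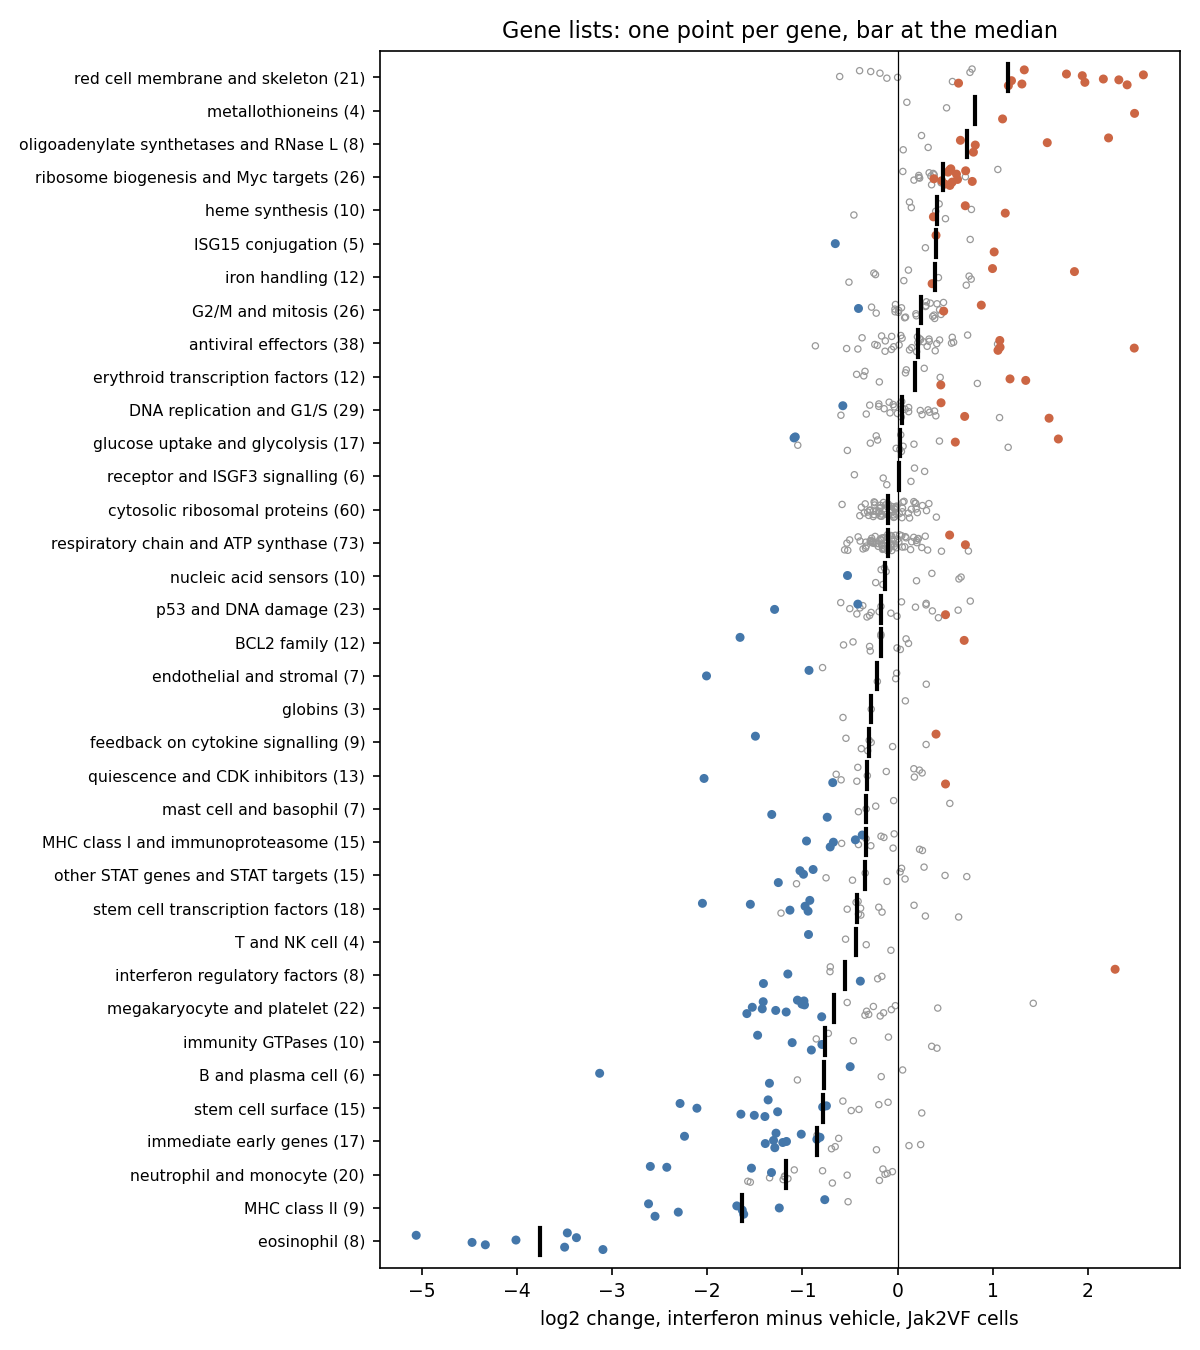
Log2 change with interferon in Jak2VF cells of each tested member of 36 gene lists (tested members in brackets), filled orange where called higher, filled blue where called lower and open where not called, with a bar at each list's median. Eosinophil genes (median −3.75) and MHC class II genes (−1.63) lie lowest, and red cell membrane genes (1.17) lie highest.

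Some of the largest rises belonged to genes outside these lists. Sphk1, the kinase that makes sphingosine 1-phosphate, stood at 8.89, 9.34, 8.43 and 9.23 with vehicle and 11.83, 11.48, 11.34 and 11.97 with interferon (log2 change 2.68, SE 0.47, adjusted p = 0.002). Slc38a5, an amino acid transporter, stood at 9.24, 9.63, 8.76 and 9.72 and 11.49, 11.42, 11.33 and 11.83 (log2 change 2.18, SE 0.38, adjusted p = 0.00173), Atp1b2, a sodium pump subunit, at 7.29, 7.90, 6.83 and 7.46 and 9.66, 9.48, 9.39 and 9.81 (log2 change 2.21, SE 0.29, adjusted p = 0.000416), and Crip2 at 6.84, 7.17, 6.07 and 6.72 and 9.13, 9.17, 8.67 and 9.78 (log2 change 2.48, SE 0.47, adjusted p = 0.00307). The gap between the groups was over 1 on the log2 scale in each. Tlcd4 and Sfrp4, a secreted inhibitor of Wnt signalling, were detected on all 4 interferon arrays and on no vehicle array. They were at least 3.84-fold (adjusted p = 0.000206, means 4.59 and 7.21) and at least 3.31-fold higher (adjusted p = 9.72e-06, means 4.61 and 6.998). Both passed the detection filter only through the group where they were high, so the filter itself favours a rise in them. Aldh1a7 rose by 2.55 and Paqr9 by 2.50, each with 2 vehicle arrays detected (adjusted p = 0.000656 and 9.72e-06). Among the falls outside the lists, Acot1, a thioesterase of fatty acid metabolism, went from 8.94, 8.76, 9.90 and 8.89 to 6.38, 6.98, 6.91 and 6.11 (log2 change −2.53, SE 0.24, adjusted p = 7.41e-05) and Myl10, a myosin light chain, from 10.72, 9.08, 11.11 and 9.86 to 8.64, 8.27, 7.81 and 6.37 (log2 change −2.42, SE 0.54, adjusted p = 0.00816).

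The 4 interferon arrays did not respond alike in every group of genes. Interferon replicate 4 had the lowest mean level of the 4 for the stem cell surface list (7.48, against 7.97, 8.19 and 8.19 on replicates 1 to 3), for MHC class II (7.54 against 8.50, 8.27 and 8.38), for platelet genes (8.15 against 8.92, 8.93 and 8.56) and for eosinophil genes (4.82 against 5.61, 6.15 and 5.12). It also had the highest for red cell membrane genes (8.37 against 8.16, 8.23 and 8.05). For oligoadenylate synthetases it stood at 7.69 against 7.41, 7.32 and 7.58, and for ribosome biogenesis at 11.54 against 11.48, 11.46 and 11.47, the highest array in both but close to the next. On the vehicle side, replicate 3 had the lowest mean for red cell membrane genes (6.75) and replicate 1 the highest for immediate early genes (9.78) and eosinophil genes (10.31). These are averages over genes of the same arrays and are given as descriptions.

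The same treatment called 220 genes (2.27%) in WT cells, where arrays of a group correlated at 0.900 to 0.993. Mean intensity ran from 162 to 414 on the WT vehicle arrays and from 294 to 1009 on the WT interferon arrays. The part of brightness in the WT calls was not tested. A test of the difference itself called 11 genes (0.114%), with 1361 at an unadjusted p under 0.05. Of the genes called in Jak2VF cells 84.4% had the same sign in WT cells, against 69.3% of all genes. Calls in both genotypes with the same direction numbered 106 and with opposite directions 1, together 6.92% of the Jak2VF calls and 48.6% of the WT calls. Over the Jak2VF calls, the median ratio of the WT change to the Jak2VF change was 0.408. The 2 comparisons share no array, but choosing genes called in Jak2VF cells favours large values there.

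Of the 11 genes 10 are given here. Rhd, at least 2.34-fold higher in Jak2VF cells, changed by 0.18 in WT cells (adjusted p = 0.0422 for the difference), and Add2, at least 1.45-fold higher, by −0.05 (adjusted p = 0.0422). They were the only 2 of the 21 red cell membrane genes whose difference was called. The median change of that list was 1.17 in Jak2VF cells and 0.76 in WT cells, where 4 members were called higher. For heme synthesis the 2 medians were 0.42 and 0.45, and for iron genes 0.40 and 0.46. Sfrp4, Tlcd4 and Nxpe4, detected on no Jak2VF vehicle array, were at least 3.31-fold, 3.84-fold and 2.05-fold higher in Jak2VF cells (adjusted p = 0.00338, 0.0142 and 0.0165 for the difference). The others given here were Abcg4, Paqr9, Pla2g12a and Abca3, whose fitted change was higher in Jak2VF cells, and Ggt5. Ggt5 was detected on 2 vehicle arrays and no interferon array of Jak2VF cells, was at least 1.18-fold lower there with overlapping groups (adjusted p = 0.0404), and changed by 0.81 in WT cells. Its Jak2VF call was lost with the slide as a block and without vehicle replicate 1, 2 or 3, interferon replicate 1, 3 or 4 or WT interferon replicate 3 or 4 (adjusted p 0.0521 to 0.113). Abcg4, Add2, Ggt5, Nxpe4, Rhd, Sfrp4 and Tlcd4 passed the detection filter only through the group where they were high, and their fitted differences are no bounds. Left out in turn, WT vehicle replicate 1 gave 2 genes, WT interferon replicates 1 and 3 gave 3 each, vehicle replicates 1 and 2 and WT interferon replicate 2 gave 6 each, interferon replicate 1 and WT interferon replicate 4 gave 7 each, and WT vehicle replicate 2 gave 25. Under median centring 0 differed. For the interferon and eosinophil genes the changes stood side by side: Irf7 changed by 2.29 in Jak2VF cells and 2.66 in WT cells, Oas2 by 1.57 and 1.71, and Prg2 by −5.06 and −4.82. Cd27 and Esam changed by −0.21 and −0.59 in WT cells, and their differences from the Jak2VF changes were not called (adjusted p = 0.0944 and 0.18).

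**Figure D5:**
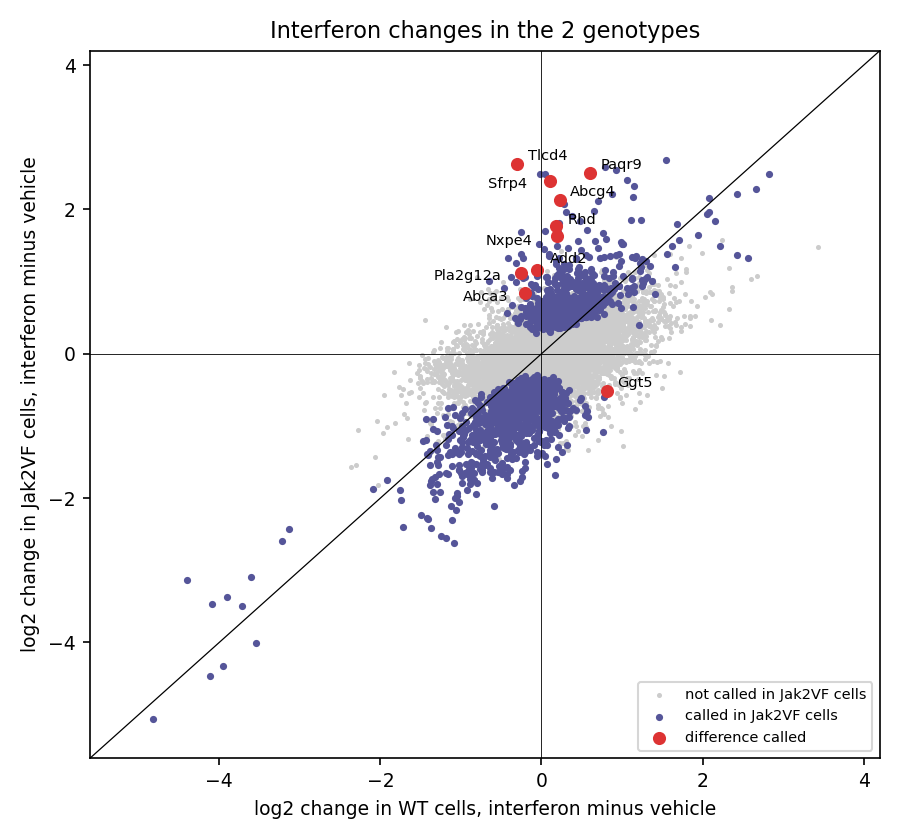
Log2 change with interferon in Jak2VF cells (vertical axis) against that in WT cells (horizontal axis) for 9680 genes, with the line of equal change and genes called in Jak2VF cells in purple. Red marks 10 of the 11 genes whose difference was called, with Ggt5 below the line and Rhd, Sfrp4 and Tlcd4 above it, while the eosinophil genes at the lower left fell in both genotypes.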

How the data were processed

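RNA of stem-cell-enriched cells was extracted with the PicoPure kit and amplified with the Illumina TotalPrep kit, per the labels' protocols. The deposited table holds, per the file headers, an average intensity on a linear scale and a detection p-value for each of 25697 probes on each array, with no normalization between arrays visible in the values. A second deposited table of intensities, processed by the authors in steps not given in the sources used here, had column medians of 119 to 120 and served as an alternative. The intensities were background corrected with normexp (offset 16, background inferred from the detection p-values), then quantile normalized and logged (base 2) by the neqc function of limma 3.58.1 (R 4.3.3, jsonlite 2.0.0), so the log2 values are computed here from the deposited intensities. Probes with a detection p under 0.05 on at least 4 of the 16 arrays were kept (13374), and the brightest such probe stood for its gene (9680 genes). Symbols were updated through RefSeq (GRCm38.p6): 17548 probes had a current symbol, 7082 an older one and 1046 one kept as given, and 21 turned into dates were left out. For arrays, their number limits the precision.

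The means of the 4 groups were fitted together over the 16 arrays (lmFit, then eBayes, which had 2.73 prior beside 12 residual degrees of freedom), with p-values adjusted by Benjamini-Hochberg over all genes. Replicate numbers only name the arrays and pair nothing. A gene detected on no array of its dimmer group is given as a bound, set by the brighter mean and, per array of the dimmer group, the lowest signal detected (or the probe, if higher). Named genes were the 15 largest called rises and falls without overlap, up to 5 called members of each of 36 lists (or the smallest p), the receptor list, Jak2 and Ptprc, and the 5 largest called differences each way. Further list members, Abca3, Nxpe4 and Pla2g12a were chosen after their values were seen. The members, the lists and the rule were chosen with earlier results of these data known. On simulated data with 9680 genes and 200 changed, 65% of changes of log2 1 and 89% of those of log2 2 were called in the right direction, and 4.35% of calls were of unchanged genes. The simulated noise was independent between genes, with the same spread in each group and no array or brightness effect. These rates therefore check the fit and do not carry over to the calls in the measured data. The alternatives were no background correction, an offset of 50, 2 kinds of median centring, other detection filters, the mean of all probes, the authors' values, the slide as a block or alone, brightness as a covariate, leaving out the 3 dimmest arrays, array weights, the 8 Jak2VF arrays alone and leaving out each array. Centring on all probes was added after the data were seen. Some genes that the rule names are not reported here.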

Additional observations from a re-analysis of the deposited data

Results flagged for a closer look

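In 274 groups of 4 arrays, 19 held an array whose gap to its nearest neighbour took up most of the group's range. Chance flags about 1 group in 20. On the vehicle arrays, replicate 1 was apart for Ifi44 (5.97, the next at 5.40), Pkm (11.90, the next at 11.68), Tlcd4 (4.96, the next at 4.49) and Usp18 (9.44, the next at 9.58). Replicate 2 was apart for H2-DMb1 (10.32, the next at 10.15) and Pfkm (10.25, the next at 10.40), and replicate 3 for Acot1 (9.90, the next at 8.94), Ifi27l2a (10.01, the next at 8.72) and Pim1 (7.23, the next at 8.18). Replicate 4 was apart for Fli1 (9.79, the next at 9.34) and Rhd (5.13, the next at 4.64).

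On the interferon arrays, replicate 2 was apart for Ear4 (6.04, the next at 4.80) and Prg3 (5.48, the next at 4.69), and replicate 3 for Gvin1 (10.22, the next at 9.87). Replicate 4 was the low array for Hoxa5 (6.64, the next at 7.36), Ikbke (6.33, the next at 6.68), Nkg7 (11.09, the next at 11.67), Robo4 (4.85, the next at 6.45) and Slc2a1 (7.46, the next at 8.05). All values are log2 intensities.

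For 11 genes the interferon change in Jak2VF cells differed from that in WT cells by limma's test of the difference, and 10 are given here, with a log2 difference of 1.04 for Abca3, 1.90 for Abcg4, 1.22 for Add2, −1.33 for Ggt5, 1.44 for Nxpe4, 1.90 for Paqr9, 1.37 for Pla2g12a, 1.60 for Rhd, 2.28 for Sfrp4 and 2.92 for Tlcd4. Abcg4, Add2, Ggt5, Nxpe4, Rhd, Sfrp4 and Tlcd4 passed the detection filter only through the group where they were high, so their fitted differences rest on values near background and are no bounds.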

How the results depend on the processing

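Of the 128 named genes that were called, 80 kept the call in each fit that left out 1 array and 48 lost it in at least 1. The called genes, 1546 in all with 630 higher and 916 lower, numbered 712 to 2217, with 271 to 964 higher and 441 to 1253 lower, when 1 array was left out. They were 9 (8 and 1) within slide 1, 2 (2 and 0) within slide 2, 3105 (1443 and 1662) without the 3 dimmest arrays, all WT, 3105 (1427 and 1678) with array weights, 2617 (1209 and 1408) on the 8 Jak2VF arrays alone and 151 (135 and 16) with centring on all probes, added after the data were seen. For the slides the construction leaves 2 arrays a group, and for the other settings the cause was not tested. Median centring on detected probes gave 1926 (626 and 1300), which lowers the share of rises, and brightness as a covariate 1191, of which 884 were shared with the 1546. Other settings gave 1332 to 1701. The difference between genotypes, 11 genes, gave 85 without background correction, 34 with an offset of 50, 62 with the authors' values, 22 with brightness, 145 with array weights, 7 with no filter, 2 with detection on at least 8 arrays, 2 without the dimmest arrays, 6 with centring on all probes, 0 with median centring and 0 on each slide alone, and 2 to 25 without 1 array. The brightness difference was 0.68 to 0.99 without 1 array.

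With brightness as a covariate the calls lost were those of Bcl11a, Bid, Bok, Ccne1, Ccng1, Cdc6, Cdkn1c, Cenpa, Cyc1, Emcn, Fth1, Gadd45b, Gbp6, Gnl3, Ier3, Ikbke, Kif23, Ndn, Oas1a, Oas3, Pim1, Prtn3, Psmb10, Psmb8, Pttg1, Rrm2, S100a8, S100a9, Socs3, Uqcrc2 and Zfp36, under median centring those of Alad, Cenpa, Cldn13, Cpox, Fth1, Ifi44, Oas1a, Oas3, Pklr, Pttg1, Rhd and Rrm2, and with the slide as a block those of Cyc1, Ggt5, Irf2, Psmb8, Rrm2 and Tap2. The mean of all passing probes lost those of Cdc6, Cpa3, Cyc1, Gbp2, Gbp6, Irf2, Pecam1, Pim1, Rrm2, Sesn1, Slc25a38, Stat4 and Tap2.

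Named genes crossed 0 in few settings. Under median centring, which moves the median gene by −0.19, Fth1 stood at −0.15, Oas3 at −0.0812 and Stat2 at −0.0789, all above that shift. Stat2 also stood at −0.18 on slide 1 and −0.20 with brightness, Irf9 at −0.0598 with brightness, Jak1 at 0.13 on slide 1 and Ifnar2 at 0.0065 with the mean of all probes. With centring on all probes, which moves the median gene by 0.56, values above 0 were found for Ccng2 (0.0624), Cpa3 (0.0249), H2-M3 (0.0404), Hba-a1 (0.12), Ifnar2 (0.59), Ikbke (0.018), Irf2 (0.38), Jak1 (0.63), Kif23 (0.34), Psmb10 (0.028), Psmb9 (0.21), Ptprc (0.22), Rfc2 (0.0788), Rpl23a (0.0721), Sesn1 (0.36), Tap2 (0.40), Uba7 (0.0453) and Xbp1 (0.28), all below that shift except Ifnar2 and Jak1. Signal near background limits genes such as Oas3, Ciita and Rhd to bounds. No paired analysis was possible because the replicate numbers follow accession order and mark no shared animal, batch or day.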

Other observations

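Some further genes of the lists moved with interferon in Jak2VF cells but rested on few arrays. Zfp36, which destabilises messages with AU-rich ends, stood at 11.82, 11.26, 10.45 and 11.12 on the vehicle arrays and 9.87, 10.56, 9.88 and 9.22 on the interferon arrays (log2 change −1.28, SE 0.34, adjusted p = 0.02 by limma), and Ier3, another immediate early gene, at 11.22, 10.66, 10.48 and 10.54 and 9.59, 10.05, 9.10 and 8.95 (log2 change −1.30, SE 0.33, adjusted p = 0.0165). The Zfp36 groups overlapped. Their calls were lost without vehicle replicate 1 or interferon replicate 4 (adjusted p 0.0684 to 0.0806) and without vehicle replicate 1 or interferon replicate 3 or 4 (adjusted p 0.05 to 0.0667). Xbp1, the plasma cell and stress factor, stood at 11.38, 11.23, 11.34 and 11.08 and 10.84, 10.71, 10.93 and 10.55 (log2 change −0.50, SE 0.13, adjusted p = 0.0161), with a call that was lost without vehicle replicate 1 or interferon replicate 4 (adjusted p 0.0528 to 0.0639). The ribosome assembly factors Mrto4 and Gnl3 rose by 0.63 and 0.58 (adjusted p = 0.021 and 0.0319), and were lost without vehicle replicate 1 or interferon replicate 1 or 4 (adjusted p 0.0508 to 0.0662) and without vehicle replicate 1, 2 or 3 or interferon replicate 2, 3 or 4 (adjusted p 0.0578 to 0.118).

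Among cell cycle genes, Rrm2, a subunit of ribonucleotide reductase, rose by 0.46 (adjusted p = 0.0487) and Cenpa, the histone of centromeres, by 0.49 (adjusted p = 0.0378). Kif23, a motor of cell division, fell by 0.41 (adjusted p = 0.0351) and Ccng2, a cyclin of resting cells, fell by 0.68 (adjusted p = 0.0243). None of these 4 overlapped between groups. Their calls were lost, for Rrm2, without vehicle replicate 1, 2, 3 or 4, interferon replicate 1, 3 or 4, WT vehicle replicate 1 or interferon-treated WT replicate 1, 3 or 4 (adjusted p 0.052 to 0.132), for Cenpa, without vehicle replicate 1 or 3 or interferon replicate 2, 3 or 4 (adjusted p 0.0793 to 0.116), for Kif23, without vehicle replicate 2, 3 or 4 or interferon replicate 2, 3 or 4 (adjusted p 0.0512 to 0.127) and for Ccng2, without vehicle replicate 1 or 2 or interferon replicate 1 or 4 (adjusted p 0.0547 to 0.0839).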
